A study of Homo sapiens with 6 samples.

Results

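A set of 8 genes of the red cell surface and of the protein net beneath it were followed, ANK1, SPTB, EPB41, EPB42, GYPB, GYPC, XK and RHAG. They were taken by name from a count table of 61487 gene IDs, each of the 8 symbols matched 1 ID, and 7 of the 8 passed the filter on low counts that left 20891 genes for testing. The libraries came from K562, a human leukaemia line with erythroid features that grew from a patient with chronic myeloid leukaemia. Sensitive cells are the line as it responds to azacitidine, a cytidine analogue that inhibits DNA methyltransferases. Resistant cells are a derivative obtained by growing the line for months in rising amounts of the drug. Each group has 3 libraries (replicates 1 to 3), the same culture medium, and no treatment named at harvest. A single resistant population is described, so differences that arose in it for other reasons than the drug cannot be told apart from resistance.

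The red cell membrane is held by a net of spectrin, whose beta chain is SPTB and whose ends meet at short actin filaments. Protein 4.1 (EPB41) fastens those filaments to spectrin and, with glycophorin C (GYPC), to the membrane, while ankyrin (ANK1) ties beta spectrin to the anion exchanger band 3 (SLC4A1), and protein 4.2 (EPB42) binds band 3 and ankyrin. Glycophorin B (GYPB) carries the Ss blood group antigens, GYPC the Gerbich antigens, and XK the Kx antigen in a complex with the Kell protein (KEL). RHAG is a membrane channel protein that brings the Rh proteins to the cell surface. Defects of ANK1, SPTB and EPB42 cause hereditary spherocytosis, those of EPB41 elliptocytosis, and loss of XK causes McLeod syndrome.

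Sequence before the start sites is shown because the erythroid factor GATA1 and the methylation of CpG pairs, the process that azacitidine acts on, both concern promoters. The RefSeq promoter table (GRCh38.p14) was read for the genes other than ANK1, which was not looked up. It held 9 windows for 6 of them, SPTB, EPB41, EPB42, GYPB, GYPC and RHAG, and none for XK. Each window was read over the 250 bases before its start. ANK1 and XK are named only, so the counts of words and CpG pairs do not cover them. Capitals mark a GATA word, which is AGATAA or one of its variants AGATAG (the last letter changed), TGATAA (the first letter changed) or TGATAG (both letters changed), on either strand, so that the word may also read, for example, CTATCT. The stretches end before the first base that GENCODE 29 assigns to the gene, and for GYPC and RHAG, where that base lies further upstream, 30 bases around the word are given. In order, the stretches lie at chr14:64879908-64880157, minus strand (first of 2 windows), chr1:28886850-28887090, plus strand (first of 2 windows), chr4:144019381-144019630, minus strand (first of 2 windows), chr15:43221126-43221268, minus strand, chr2:126656082-126656111, plus strand, and chr6:49636853-49636882, minus strand.
SPTB: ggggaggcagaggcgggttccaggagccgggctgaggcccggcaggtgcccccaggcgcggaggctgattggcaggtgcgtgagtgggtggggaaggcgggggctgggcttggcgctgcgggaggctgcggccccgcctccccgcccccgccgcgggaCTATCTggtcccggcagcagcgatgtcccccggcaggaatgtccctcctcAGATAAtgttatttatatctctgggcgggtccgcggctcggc
EPB41: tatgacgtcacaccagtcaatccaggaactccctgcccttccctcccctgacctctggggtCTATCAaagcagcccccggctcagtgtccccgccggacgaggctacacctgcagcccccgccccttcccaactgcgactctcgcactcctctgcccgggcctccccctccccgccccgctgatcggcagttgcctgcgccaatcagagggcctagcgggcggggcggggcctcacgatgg
GYPB: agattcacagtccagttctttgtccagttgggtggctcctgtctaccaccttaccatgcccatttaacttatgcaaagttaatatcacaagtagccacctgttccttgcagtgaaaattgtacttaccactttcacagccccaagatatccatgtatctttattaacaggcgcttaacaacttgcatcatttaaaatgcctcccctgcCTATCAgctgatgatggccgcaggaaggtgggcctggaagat
EPB42: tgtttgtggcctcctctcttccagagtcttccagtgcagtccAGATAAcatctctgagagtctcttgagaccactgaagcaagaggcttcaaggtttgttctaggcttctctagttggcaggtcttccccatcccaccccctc
GYPC: aatgaagtctgcCTATCTccgggccagagc
RHAG: agtcctttgttcTTATCAacatctcacagc

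A GATA word stood in 7 of the 9 windows and in at least 1 window of each of the 6 genes, where 22.33% of 35116 windows of the same length in the table hold one. The 2 GYPB windows overlap over most of their length and share a word, so they are not separate, and the second windows of SPTB and EPB41 hold none. In the first SPTB window, which has 2, they began 92 and 42 bases before the start. The word of RHAG began 31 bases and that of GYPC 64 bases before it. The windows differed more in CpG pairs. The first SPTB window held 22 and the second 8, the 2 EPB41 windows held 17 and 22, GYPC held 11, the 2 GYPB windows 2 each, and EPB42 and RHAG 1 each. Over the table the quartiles were 3, 11 and 23 CpG pairs. The matches are letters in a window and not measured binding or methylation, and SPTB and EPB41 (higher in resistant cells, below), GYPC (lower) and EPB42 (nearly silent) all hold one.

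Depth and cell identity were checked over the whole table. Total counts were 33007642 to 43006918 per library, so 3 counts correspond to 0.0698 to 0.0909 CPM, the usual unit of counts relative to the total of a library. The second principal component (17.96% of the variance) set both libraries numbered 3 apart from the other libraries, and resistant replicate 3 had the lowest share of mitochondrial ribosomal RNA, 8.54%, against up to 17.8% in the other libraries. The labels call the cells myeloblasts. Of the 12 granulocyte and monocyte markers, MPO, ELANE, CTSG, S100A8, S100A9 and FCN1 were at or near 0 in every library, at up to 0.120 CPM, and CD14, CSF1R, PRTN3 and AZU1 were low, at up to 0.240, 0.830, 1.61 and 4.99 CPM. The other two were not low. LYZ stood at 40.4 to 78.9 CPM in sensitive and 5.01 to 6.82 CPM in resistant libraries, and ITGAM at 28.5 to 60.4 CPM over both groups. The erythroid factor GATA1 measured 80.6 to 128.5 CPM.

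Of the 8 genes, 3 rose in resistant cells (ANK1, SPTB and EPB41, all of the skeleton), 2 fell (XK and GYPC, both membrane-spanning blood group carriers), 2 did not pass the test (GYPB and RHAG) and 1 was too low to be tested (EPB42). Over all genes tested, 9.83% were called higher, 13.1% lower and 23% either way at an edgeR adjusted p below 0.05. The median log2 fold change of the 7 tested genes was 0.59, against 0.03 over all genes. That median is the value of GYPB, which was 0.14 without resistant replicate 3, and the called genes went both ways. Without both libraries numbered 3, the same 3 were higher and 3 lower, EPB42 being added, but over all genes 4645 and 5021 of 21908 tested were then called higher and lower. The resistant and sensitive libraries did not overlap for 5 of the 7 tested genes, a state shared by 40.1% of all genes tested. In RNA from whole cultures, fewer cells that express a gene and less of its RNA per cell cannot be told apart.

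**Figure D1:**
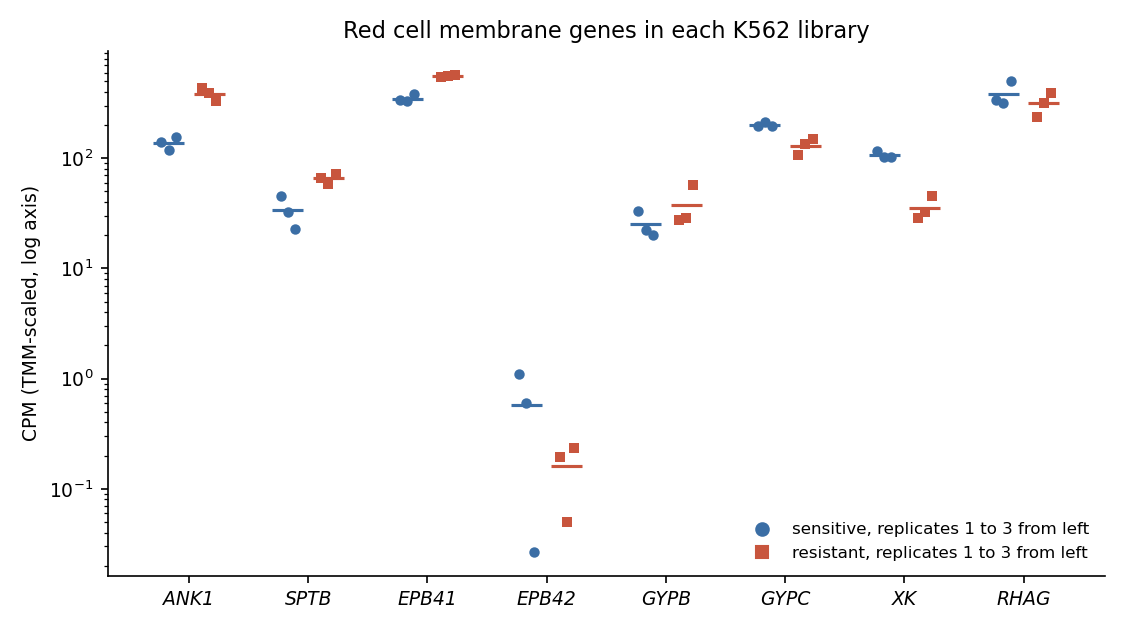
Each point is the level of a gene in 1 library, in TMM-scaled CPM on a log axis, with replicates 1 to 3 from left to right; the bar is the mean of 3 libraries. ANK1, SPTB and EPB41 lie higher in all 3 resistant libraries (squares), XK and GYPC lie lower, and EPB42 lies near or below 1 CPM throughout.

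ANK1, the anchor between spectrin and band 3, rose the most. It lies on chromosome 8 (41653220 to 41896762, minus strand) and stood at 139.5, 118.9 and 154.9 CPM in sensitive replicates 1 to 3 and at 434.3, 389.1 and 332.6 CPM in resistant replicates 1 to 3. Every resistant library was more than 2 times as high as every sensitive one. The log2 fold change was 1.48 ± 0.18 (SE, edgeR adjusted p = 3.81e-04), and the call held with any 1 library left out, at adjusted p of at most 0.00447. An antisense RNA gene, AC113133.1, shares 842 exon bases with ANK1 on the opposite strand but had 11 to 36 counts per library, against 3954 to 15688 for ANK1. The microRNA genes MIR486-1 and MIR486-2 lie inside ANK1 without touching its exons.

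SPTB encodes the beta chain of spectrin, which carries the ankyrin binding site. It lies on chromosome 14 (64746283 to 64879907, minus strand) and, in the same order of replicates, stood at 45.3, 32.8 and 22.9 CPM in sensitive cells and at 66.7, 58.9 and 71.4 CPM in resistant cells. The groups did not overlap, though the sensitive libraries were spread more widely than the resistant ones. Its fold change on the log2 scale was 0.96 ± 0.23 (SE, adjusted p = 0.0141). The call did not hold with sensitive replicate 2 left out (0.0587) or with offsets for length and GC content (0.73, adjusted p = 0.0539). PLEKHG3 shares 3408 exon bases with SPTB on the opposite strand and also rose, from 6 to 12 counts per library to 63 to 66, which is small beside the 856 to 2724 counts of SPTB.

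EPB41, the protein that links spectrin, actin and GYPC, rose by the smallest fold of the 3. It lies on chromosome 1 (28887091 to 29120046, plus strand) and stood at 335.1, 329.5 and 380.5 CPM in sensitive cells and at 543.6, 561.3 and 574.9 CPM in resistant cells. The 3 resistant libraries lay close together and above all sensitive ones. The difference was 0.68 ± 0.17 on the log2 scale (SE, adjusted p = 0.0159). With sensitive replicate 1 left out the adjusted p was 0.102, with sensitive replicate 2 left out 0.104, and with resistant replicate 2 left out 0.0980, while the fold change stayed between 0.62 and 0.75 when single libraries were left out. TMEM200B shares 619 exon bases with EPB41 on the opposite strand and had 4 to 34 counts per library, against 10963 to 22322 for EPB41.

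EPB42, a catalytically inactive relative of the transglutaminases, was nearly silent. It lies on chromosome 15 (43197227 to 43221125, minus strand) and had 45, 20 and 1 counts in sensitive cells against 7, 2 and 9 counts in resistant cells, or 1.10, 0.601 and 0.0268 CPM against 0.194, 0.0503 and 0.236 CPM. The groups overlapped because of the single count in sensitive replicate 3. The gene did not pass the filter on low counts, and without a filter its log2 fold change was −1.85 with an adjusted p of 0.0507. With sensitive replicate 3 left out it passed the filter and was called lower (−2.41, adjusted p = 0.0416), and so it was without both libraries numbered 3 (−2.82, adjusted p = 0.00288). A transcript on the same strand, AC068724.4, shares 10.5% of the 100-base stretches of EPB42 but had at most 2 counts per library. SLC4A1, the band 3 gene whose product EPB42 binds, was low as well, at 4.03, 2.65 and 0.670 CPM in sensitive cells and 1.83, 1.51 and 4.62 CPM in resistant cells, without a call (log2 fold change 0.11, adjusted p = 0.915). Without both libraries numbered 3 it was called lower (−1.02, adjusted p = 0.0135).

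Of the 2 glycophorins, GYPC fell. Its product is the membrane partner of protein 4.1, and it lies on chromosome 2 (126655933 to 126696670, plus strand). The levels were 195.8, 211.7 and 197.3 CPM in sensitive cells and 107.2, 134.3 and 149.0 CPM in resistant cells, so that all resistant libraries were below all sensitive ones. It fell by a log2 fold change of −0.63 ± 0.17 (SE, adjusted p = 0.0235). This call depended on the libraries used. Leaving out sensitive replicate 1, 2 or 3 gave adjusted p of 0.0729, 0.0883 and 0.0505, and leaving out resistant replicate 1 or 2 gave 0.0815 and 0.114. It was also lost with scaling to library totals alone (−0.47, adjusted p = 0.0562) and with length and GC offsets (−0.57, adjusted p = 0.0532).

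GYPB did not pass. It lies on chromosome 4 (143996104 to 144019345, minus strand), beside its relative GYPE, and stood at 33.04, 22.3 and 20.3 CPM in sensitive cells and at 27.6, 28.7 and 57.3 CPM in resistant cells. Resistant replicate 3 stood about 2 times above the others of its group and the groups overlapped. The log2 fold change was 0.59 ± 0.30 (SE, adjusted p = 0.191), and 0.14 without resistant replicate 3. Resistant replicate 3 was also the highest library for GYPE (66.0 CPM, others 29.4 to 47.9), which did not pass (log2 fold change 0.13, adjusted p = 0.803). Of the 100-base stretches of GYPB, 3.51% also lie in another gene, and reads may be split there.

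XK fell the most. The gene lies on chromosome X (37685756 to 37732130, plus strand) and encodes a membrane-spanning protein related to phospholipid scramblases. Sensitive cells held 117.1, 102.8 and 103.5 CPM and resistant cells 28.8, 32.4 and 45.2 CPM, with resistant replicate 3 the nearest to the sensitive group but still far below it. On the log2 scale the change was −1.60 ± 0.19 (SE, adjusted p = 2.89e-04), and the call held with any 1 library left out, at adjusted p of at most 0.00491.

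The partners of XK moved less. KEL, whose endopeptidase product is joined to XK by a disulfide bond, fell from 31.0 ± 4.22 to 19.4 ± 5.42 CPM (SD, n = 3 each, log2 fold change −0.68, adjusted p = 0.0480). That call did not hold when sensitive replicate 1 (0.139), 2 (0.0602) or 3 (0.130) or resistant replicate 1 (0.130) or 2 (0.217) was left out, with library totals alone (0.111) and with the offsets (0.0754). Per length, XK stood at 2.73, 3.00 and 2.32 times KEL in sensitive cells, and at 1.25, 1.63 and 1.35 times in resistant cells (exact two-sided permutation p = 0.1, the smallest that 3 against 3 can give, and adjusted p = 0.1 over the 3 ratios computed, which were chosen after the values were seen). The ratio was lower in every resistant library. VPS13A, the lipid transfer protein that binds XK, measured 100.5 ± 5.62 and 118.5 ± 16.8 CPM (log2 fold change 0.24, adjusted p = 0.315), and was called higher without both libraries numbered 3 (0.32, adjusted p = 0.0369).

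RHAG was the most abundant of the 8 per unit of length and did not pass. It lies on chromosome 6 (49605158 to 49636884, minus strand) and stood at 336.3, 315.0 and 504.5 CPM in sensitive cells and at 236.0, 317.2 and 394.3 CPM in resistant cells. The groups overlapped, and the libraries numbered 3 were the highest of each group. The difference on the log2 scale was −0.29 ± 0.25 (SE, adjusted p = 0.446). The Rh genes it serves, RHD and RHCE, stood at 11.9 ± 3.11 and 8.50 ± 1.60 CPM in sensitive and at 8.69 ± 4.39 and 9.85 ± 3.83 CPM in resistant cells, and neither passed (adjusted p = 0.373 and 0.636). Without resistant replicate 3 RHD was called lower (−0.97, adjusted p = 0.0187).

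Levels of different genes were compared in CPM per kb of merged exon. That length counts the exons of all annotated transcripts of a gene, and which of them these cells use was not measured. In sensitive cells RHAG led with 143.2 ± 38.6 CPM per kb (SD, n = 3), followed by GYPC (52.9 ± 2.30), XK (20.7 ± 1.55), EPB41 (17.4 ± 1.40), GYPB (13.5 ± 3.67), ANK1 (12.8 ± 1.68), SPTB (2.28 ± 0.756) and EPB42 (0.190 ± 0.177). The ranges of EPB41, GYPB and ANK1 overlapped in that order, so these neighbours did not differ beyond their spread. In resistant cells RHAG remained first at 117.4 ± 29.4 CPM per kb and EPB42 last at 0.0527 ± 0.0320. ANK1 (35.7 ± 4.72) now stood second, beside GYPC (34.1 ± 5.57), with EPB41 at 28.01 ± 0.786 and GYPB at 20.2 ± 9.01, and the libraries of these 4 overlapped from one gene to the next. XK (6.81 ± 1.65) and SPTB (4.44 ± 0.429) followed.

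Each gene belongs to a family with members used in other tissues, and its share of the family level per length was computed in each library. ANK1 took 91.8% ± 1.42 of the ankyrin level in sensitive and 99.7% ± 0.137 in resistant cells (SD, n = 3 each). The other 2 ankyrins moved the opposite way. ANK3, the ankyrin of axon initial segments and epithelia, fell from 27.2 ± 1.78 to 2.59 ± 1.52 CPM (log2 fold change −3.39 ± 0.42 SE, adjusted p = 3.85e-04). ANK2, the cardiac and neuronal form, fell from 1.12 ± 0.190 to 0.437 ± 0.0705 CPM (adjusted p = 0.0372), a call that, of the 6 single leave-outs, held only without resistant replicate 3 (adjusted p from 0.0727 to 0.125 in the others).

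In the protein 4.1 family the share of EPB41 went from 40.0% ± 4.77 to 62.4% ± 6.90. EPB41L2, the widely expressed relative 4.1G, fell from 209.6 ± 24.9 to 119.8 ± 35.1 CPM (log2 fold change −0.81 ± 0.23 SE, adjusted p = 0.0289). That call did not hold when sensitive replicate 1 (0.0952) or 2 (0.0785) or resistant replicate 2 (0.0867) was left out. In sensitive cells EPB41L2 was level with EPB41 per length, at 17.6 to 22.1 against 16.5 to 19.0 CPM per kb. In resistant cells EPB41L2 lay below EPB41 in every library. The sensitive comparison rests on the merged exon lengths, 10320 bases for EPB41L2 and 19993 for EPB41. Without division by length EPB41L2 was lower in sensitive cells too, at 181.4 to 228.5 against 329.5 to 380.5 CPM. EPB41L3 and EPB41L4B rose from low levels, from 1.69 ± 1.23 to 13.2 ± 4.43 CPM (adjusted p = 0.00176) and from 0.139 ± 0.0945 to 2.06 ± 0.386 CPM (adjusted p = 6.96e-04). EPB41L1, EPB41L4A and EPB41L5 did not pass, with log2 fold changes of 0.91, −0.56 and −0.51. Without resistant replicate 3 EPB41L1 was called higher (adjusted p = 0.0206), and without sensitive replicate 3 EPB41L5 was called lower (0.0322).

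Among the beta spectrins the share of SPTB went from 7.05% ± 2.74 to 13.4% ± 2.17, so the erythroid chain stayed a minor member beside SPTBN1, at 429.9 ± 122 and 413.5 ± 48.6 CPM. None of SPTBN1, SPTBN4 and SPTBN5 passed (log2 fold changes −0.06, −0.38 and 0.21). The share of XK in its family went from 82.3% ± 1.84 to 40.8% ± 14.4, with XKR3, a relative best known from testis, rising from 6.96 ± 1.06 to 17.2 ± 6.09 CPM (log2 fold change 1.30 ± 0.27 SE, adjusted p = 0.00738). XKR6 fell from 0.817 ± 0.359 to 0.0629 ± 0.0701 CPM (adjusted p = 0.0113), and that call did not hold when sensitive replicate 1 (0.0525) or resistant replicate 2 (0.0567) was left out.

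Within the glycophorins GYPC held 58.4% ± 5.36 of the level per length in sensitive and 41.6% ± 8.19 in resistant cells, and GYPB 14.7% ± 3.30 and 23.2% ± 2.2. For ANK1, SPTB, EPB41, XK, GYPB and GYPC the shares of the 2 groups did not overlap, and an exact permutation test, two-sided, returned its smallest value, p = 0.1, with an adjusted p of 0.133 over the 8 shares. The groups overlapped for the shares of EPB42 among the transglutaminases (1.73% ± 1.62 and 0.777% ± 0.502) and of RHAG in the Rh family (95.2% ± 0.846 and 94.7% ± 1.07). For their differences in mean the same exact permutation test returned p = 0.5 and p = 0.6. No share can reach an adjusted p below 0.05 in this design.

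**Figure D2:**
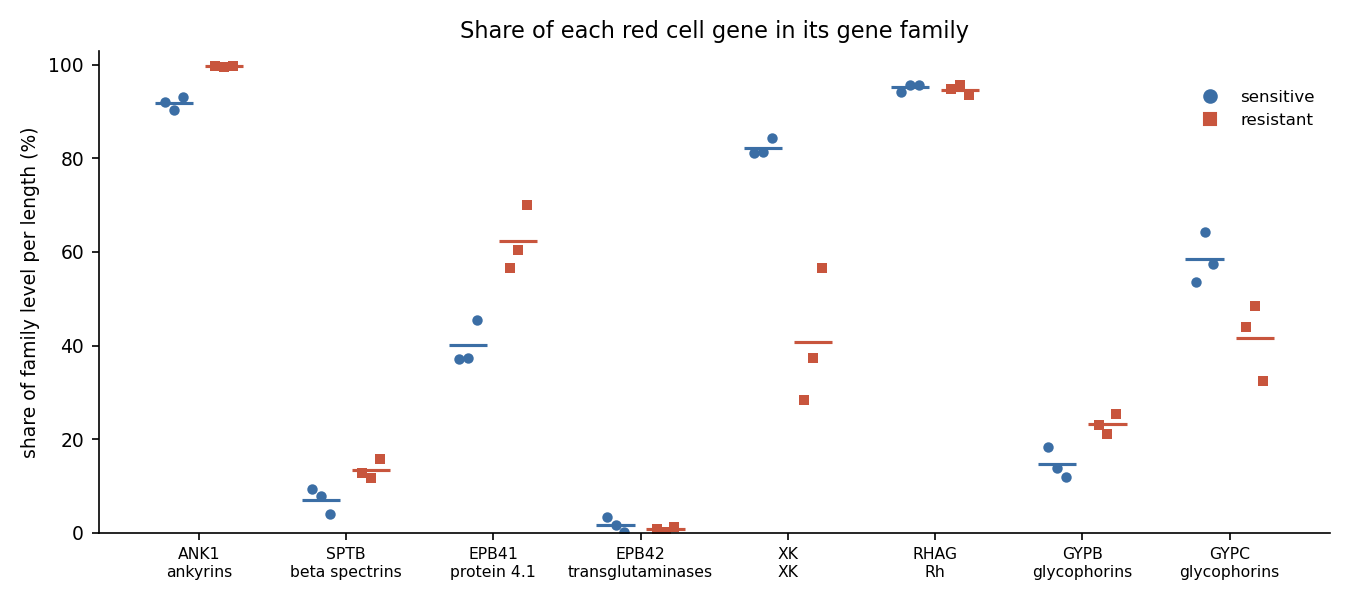
Each point is the share, in percent, of 1 gene in the summed level per exon length of its family in 1 library; bars are means of 3 libraries. The share of XK lies between 28.4% and 56.5% in resistant and above 81% in sensitive libraries, while ANK1, EPB41 and SPTB lie higher in resistant libraries and RHAG overlaps.

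The other genes of the red cell membrane were read from 5 lists with 87 entries, of which 74 were tested, 9 were higher, 21 lower and 44 not called, with a median log2 fold change of −0.17. Without both libraries numbered 3, 13 were higher and 31 lower, as calls over the whole table also rose (4645 and 5021 of 21908). The 15 other genes of the skeleton and its junctions had 2 higher, 7 lower and 6 not called, with a median of −0.53. Over all genes tested, the background for each of these lists, 9.83% were called higher and 13.1% lower (2054 and 2741). Of the 7 lower calls, that of MYH9 was lost in 3, that of MPP1 in 2 and that of TPM1 in 4 of the 6 single leave-outs. The adducins, which cap actin filaments and hold spectrin to them, went both ways. ADD2, the adducin chain of red cells and brain, fell from 55.2 ± 2.99 to 23.6 ± 1.27 CPM (log2 fold change −1.22, adjusted p = 2.49e-04). ADD1, the widely expressed partner chain, rose from 163.8 ± 16.2 to 274.8 ± 5.28 CPM (0.75, adjusted p = 0.00732), a call not held when sensitive replicate 1 (0.0580) or 2 (0.0644) or resistant replicate 2 (0.0515) was left out. Their ratio per length was 2.64, 2.65 and 3.35 in sensitive cells and 10.8, 10.8 and 12.2 in resistant cells (exact permutation p = 0.1).

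DMTN, the actin-bundling protein dematin, fell from 8.96 ± 2.39 to 3.66 ± 0.527 CPM (log2 fold change −1.29, adjusted p = 0.00582). The lipid raft scaffold genes STOM (stomatin) and FLOT1 (flotillin 1) fell by 1.02 and 0.77 on the log2 scale (adjusted p = 9.97e-04 and 0.00583). FLOT2, the partner of FLOT1, rose from 62.7 ± 9.74 to 94.3 ± 4.24 CPM (adjusted p = 0.0241), a call that held only without resistant replicate 3 among the 6 leave-outs (adjusted p up to 0.0943 in the others).

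The list of band 3, Rh complex and transporter genes had 1 higher, 2 lower and 15 not called of 18 tested, with a median of 0.04. CD47, the "do not eat me" signal that sits in the Rh complex, fell from 163.4 ± 30.7 to 76.3 ± 6.33 CPM (−1.10, adjusted p = 0.00180). AQP3, the glycerol channel that carries the GIL antigen, fell from 18.3 ± 5.93 to 7.33 ± 2.24 CPM (adjusted p = 0.00888), a call lost without resistant replicate 2 (0.0545).

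Of 22 tested genes of other blood group carriers, 4 were higher, 9 lower and 9 not called, with a median of −0.28. CD44, the hyaluronan receptor of the Indian antigens, fell from 85.4 ± 4.93 to 2.51 ± 1.12 CPM (log2 fold change −5.09 ± 0.32 SE, adjusted p = 5.22e-06). ACHE, the acetylcholinesterase of the Yt antigens, rose from 2.48 ± 1.67 to 44.7 ± 4.76 CPM (4.18 ± 0.44 SE, adjusted p = 1.37e-04). PRNP, the prion protein gene, and ABCC4, a nucleotide exporter, fell by 1.01 and 0.86 on the log2 scale (adjusted p = 0.00188 and 0.00313).

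Of 8 tested enzymes that build carbohydrate blood groups, 0 were higher, 1 lower and 7 not called (median −0.11). ABO, the transferase of the A and B antigens, had a log2 fold change of 1.10 (adjusted p = 0.107) and was called higher without resistant replicate 3 (0.00660). The 1 call was C1GALT1, which makes core O-glycans of the kind glycophorins carry. It fell from 53.0 ± 13.5 to 32.8 ± 6.97 CPM (adjusted p = 0.0471), and the call did not hold when sensitive replicate 1 (0.187) or 2 (0.0999) or resistant replicate 1 (0.137) or 2 (0.189) was left out, with library totals alone (0.128) or with the offsets (0.135). In the scrambling and flipping list, which holds the XK relatives, 2 were higher, 2 lower and 7 not called of 11 tested (median 0.24). ATP8A1, a phosphatidylserine flippase, rose from 0.172 ± 0.132 to 1.51 ± 0.155 CPM (adjusted p = 0.00306), and PLSCR1, a scramblase family gene, fell from 49.7 ± 3.20 to 29.8 ± 4.12 CPM (adjusted p = 0.00789).

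**Figure D3:**
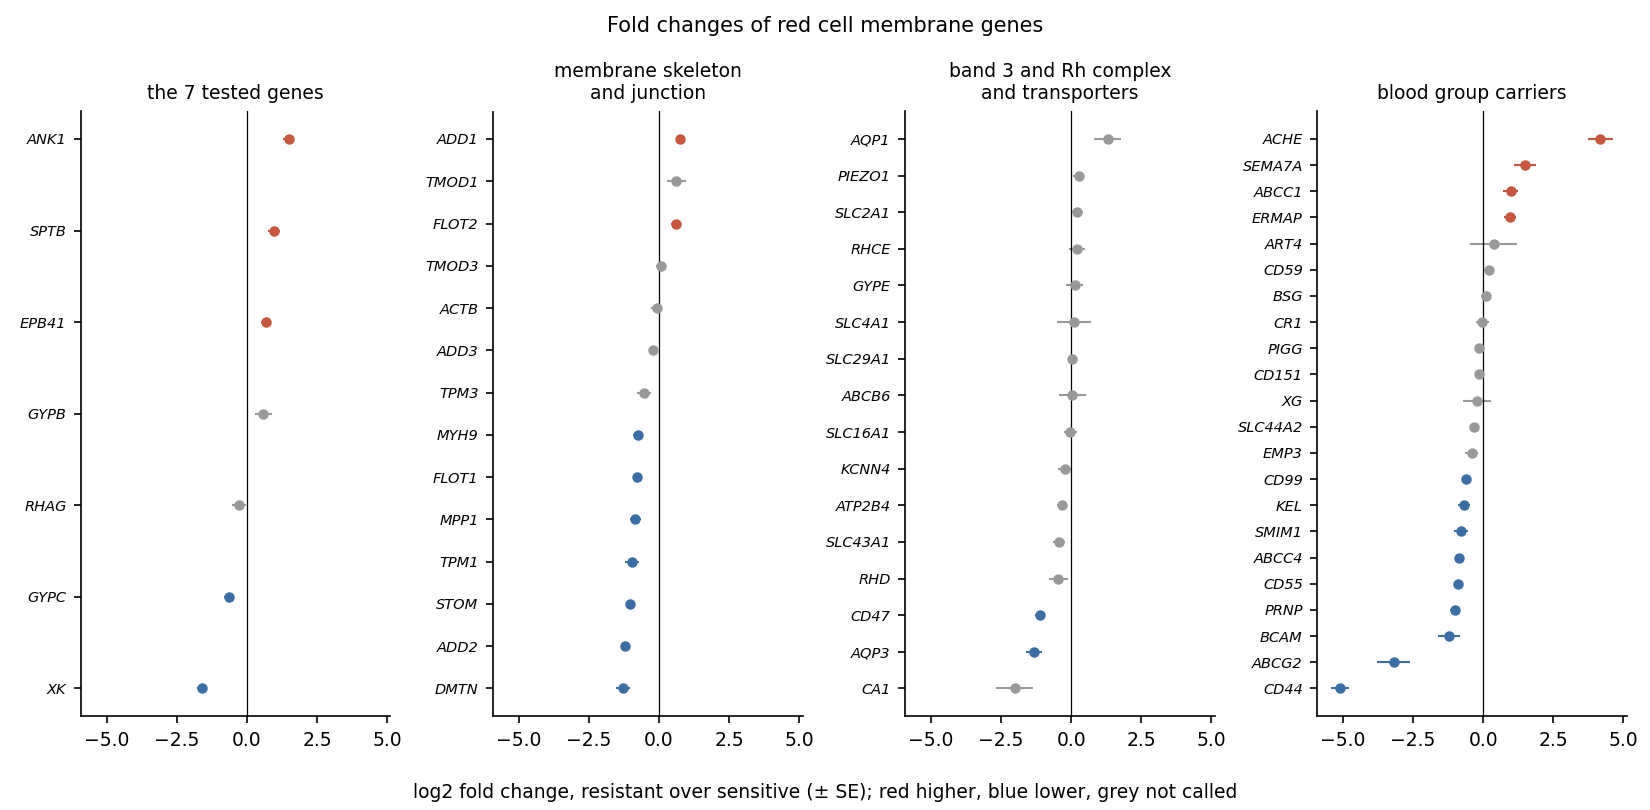
Each point is the log2 fold change of a tested gene, resistant over sensitive, with its SE, in 4 panels: 7 of the 8 genes and the genes reported here from 3 lists of other red cell membrane genes; red is called higher, blue lower, grey not called. Skeleton genes of the second panel lie mostly below 0, with a median of −0.53 over the 15 tested, whereas ANK1, SPTB and EPB41 lie above 0.

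Erythroid regulators and globins were read beside these results. Of 13 tested transcription factor genes 0 were higher, 1 lower and 12 not called (median −0.16). GATA1 measured 113.5 ± 14.5 and 84.1 ± 3.68 CPM (log2 fold change −0.43, adjusted p = 0.0664, called lower at 0.0439 without resistant replicate 3 and at 0.0148 without both libraries numbered 3). KLF1, the erythroid factor of globin and membrane genes, measured 81.4 ± 2.93 and 93.2 ± 18.7 CPM (adjusted p = 0.455). LMO2, the bridge of the GATA1 complex, fell from 85.7 ± 12.2 to 44.7 ± 9.62 CPM (adjusted p = 0.00583), lost without resistant replicate 2 (0.0524).

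Of 8 tested globin genes 2 were higher and 0 lower (median 0.20). The fetal genes HBG1 and HBG2, the most abundant among them, were called lower without resistant replicate 3 (log2 fold changes −1.24 and −1.73, adjusted p = 0.00333 and 0.00157). With all 6 libraries they were not called (−0.35 and −0.52), HBG1 standing at 58.1 to 101.2 CPM in sensitive cells and at 35.3, 35.1 and 123.1 CPM in resistant cells. HBA2 rose from 2.41 ± 1.33 to 14.3 ± 7.5 CPM (log2 fold change 2.57, adjusted p = 0.00288), with reads possibly shared with HBA1. HBB rose from 0.0858 ± 0.0774 to 0.659 ± 0.388 CPM (adjusted p = 0.0332), a call lost with any 1 library left out (adjusted p 0.0519 to 0.0885).

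Markers of other blood lineages moved with the groups too. The summed level of 12 megakaryocyte markers was 38.6 to 107.1 CPM in sensitive and 17.2 to 23.5 CPM in resistant libraries, with 4 tested, 0 higher and 1 lower, and PF4 and GP1BB at 0. For 12 granulocyte and monocyte markers it was 76.1 to 127.8 and 46.3 to 69.4 CPM, with 5 tested, 0 higher and 2 lower. For 8 lymphocyte markers it was 24.6 to 103.7 and 10.1 to 12.1 CPM, with 5 tested and 2 lower. Their part in the changes of the 8 genes was not tested.

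The genes beside each of the 8 were compared, 3 tested genes on each side. All 6 neighbours of XK fell, and none of the other 7 had more than 3 of its 6 neighbours called. Of all genes tested, 13.1% were called lower and 23% either way. Beside XK, PRRG1 and LANCL3 on one side and CYBB and DYNLT3 on the other had log2 fold changes of −1.32, −2.53, −2.02 and −1.97, and CFAP47 one of −4.84. SYTL5, at 2.68 CPM in sensitive cells, had 0 counts in each resistant library and was at least 102-fold lower against a floor of 3 counts over the group. CYBB encodes the large subunit of the phagocyte oxidase, and its neighbourhood with XK is known from deletions that cause chronic granulomatous disease together with McLeod syndrome. Copy number at this locus was not measured and cannot be read from RNA.

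After these neighbours were seen, the 10 tested genes on each side of XK were examined. In a row, 9 tested genes, from MAGEB16 to SRPX, were lower, over 2.423 Mb of chromosome X (35798342 to 38220924), and for all 9 every resistant library lay below every sensitive one. At the ends of the run, MAGEB16 went from 47.2, 46.3 and 51.3 CPM to 0, 0.201 and 0.157 CPM, and SRPX, at 1.87 CPM in sensitive cells, had 0 counts in resistant ones and was at least 71.0-fold lower. Each of the 9 calls held with any 1 library left out, at adjusted p of at most 0.0147. The fall was uneven within the run: the 3 genes with the smallest change, PRRG1, XK and DYNLT3, kept 4.47, 35.5 and 6.61 CPM, while SYTL5 and SRPX had none.

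Beyond the run the calls were mixed. Next to SRPX, RPGR had a log2 fold change of −0.07 and TSPAN7 rose by 2.25, and on the other side an unnamed RNA was not called and DMD, the dystrophin gene, rose by 1.14. Beyond DMD, GK, the glycerol kinase gene, fell by 1.18 (adjusted p = 0.00119) and MAGEB1 by 1.03 (0.0250, lost in 4 of the 6 single leave-outs). Among the 20 genes around XK, 10 were lower (50%) and 2 higher, and among the other 630 tested genes of chromosome X 121 were lower (19.21%). As the window was chosen for its calls, this difference is a description without a test.

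**Figure D4:**
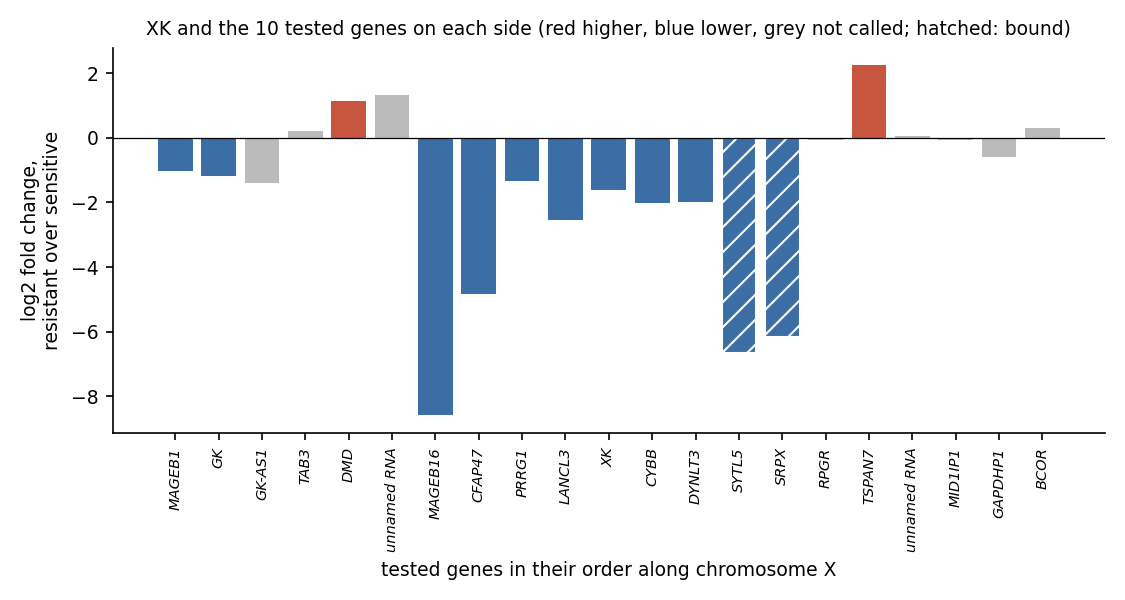
Bars are log2 fold changes, resistant over sensitive, of XK and the 10 tested genes on each side in their order along chromosome X; red is called higher, blue lower, grey not called, and hatched bars are lower bounds of the fall for 2 genes with no counts in resistant cells. The 9 genes from MAGEB16 to SRPX all lie below 0 and end beside RPGR at −0.07.

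Each of the other 7 genes had 1 to 3 of its 6 neighbours called, where 23% of all genes tested were called either way. NKX6-3, a homeobox gene beside ANK1, rose from 0.0200 to 2.31 CPM, while GPAT4 and KAT6A on the 2 sides of ANK1 were not called (log2 fold changes −0.11 and 0.44). PLEKHG3 beside SPTB rose by 2.94 and HHIP, near GYPB, by 4.37 from 0.0271 CPM. TMEM200B beside EPB41 rose by 1.72, a call that held only without resistant replicate 3 (adjusted p up to 0.193 in the other leave-outs), and CCNDBP1 beside EPB42 fell by 0.91 (0.0561 without resistant replicate 2). BIN1 beside GYPC fell by 1.23. Near RHAG, 3 neighbours fell, C6orf141 by 1.84 (not held when sensitive replicate 1 or 2 or resistant replicate 1 was left out, up to 0.0944), TFAP2B by 0.85 (held only without sensitive replicate 3, up to 0.164) and an unnamed RNA by 3.10. A second unnamed RNA, inside ANK1, rose by 0.73, and its call was lost in 5 of the 6 leave-outs.

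Likeness of pattern was measured as the root mean square difference of log2 CPM over the 6 libraries, after centring each gene on its sensitive mean, among 8909 genes with a mean log2 CPM of at least 3. The nearest genes were the non-coding RNA CHASERR for ANK1 (0.109), FBXL20 for SPTB (0.144), ICE1 for EPB41 (0.0429), ASRGL1 for GYPB (0.149), SMIM29 for GYPC (0.0335), PIMREG for XK (0.0875) and NCBP2AS2 for RHAG (0.0371). Among 80 listed red cell membrane genes, the nearest were FLOT2 for SPTB (0.346), ADD1 for EPB41 (0.0547), SLC2A1 for GYPB (0.298), PLSCR1 for GYPC (0.0797), ADD2 for XK (0.374) and ADD3 for RHAG (0.172). EPB41 and GYPC thus had close companions among the listed genes, and XK and SPTB did not. With 6 libraries in 2 groups, the measure mostly reflects the size of the group difference.

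Exon length moved with the direction of change over the whole table. Protein-coding genes with under 2 kb of merged exon had a median log2 fold change of −0.11, those from 2 to 4 kb −0.12, those from 4 to 6 kb −0.03, those from 6 to 10 kb 0.02 and the 1564 genes of 10 kb or more 0.14, of which 20.27% were higher and 14% lower. ANK1 (10797 bases), SPTB (14796) and EPB41 (19993) all fall in the longest class, XK (5209) in the middle one and GYPC (3812) and RHAG (2691) in the second. The quartiles of the longest class were −0.29 and 0.56, so all 3 long genes lay above the upper one. Offsets for length and GC content, chosen after the data were seen, used the longest transcript of each gene and not its merged exons. They lowered the median of the longest class from 0.14 to 0.09, so the trend with length was not fully removed. With them ANK1 was higher by 1.17 (adjusted p = 0.00719) and EPB41 by 0.80 (0.0132). SPTB was higher by 0.73 without a call, and XK was lower by 1.46 (5.67e-04).

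**Figure D5:**
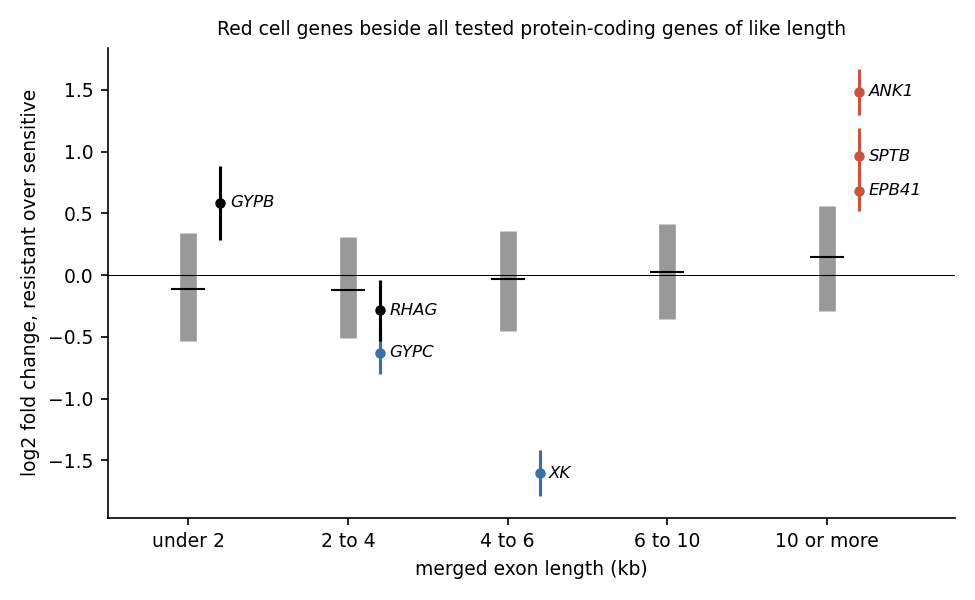
Grey bars span the quartiles and black lines mark the medians of log2 fold changes, resistant over sensitive, of all tested protein-coding genes in 5 classes of merged exon length (kb); points are the 7 tested genes with their SE, red called higher, blue lower, black not called. ANK1, SPTB and EPB41 lie above the upper quartile of 0.56 of their class, and XK lies below the lower quartile of −0.46 of its class.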

How the data were processed

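RNA of K562 cells (3 sensitive and 3 resistant libraries) was sequenced in pairs after removal of ribosomal RNA, with a stranded kit per the labels' protocols. The authors deposited raw counts per Ensembl gene, whole numbers with no normalization. The submitters' processing notes name the aligner HISAT2 2.2.1, the trimmer Trimmomatic 0.39, the counter featureCounts of Subread 2.0.3 and the build GRCh38. Which annotation release and strand setting served is not stated in any source read here, so overlapping genes are uncertain. Symbols matched 61369 of 61487 IDs. Positions and merged exon lengths are from GENCODE 29, and promoter windows from RefSeq (GRCh38.p14).

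The comparison used edgeR 4.0.16 under R 4.3.3 (filterByExpr, TMM factors, robust quasi-likelihood test, two-sided, Benjamini-Hochberg over 20891 genes). Called means an adjusted p below 0.05. The SE is the fold change divided by the root of F. CPM values use TMM-scaled totals. The titles call the replicates biological and say no more of their source, and a p-value reflects only how these libraries spread. Floors of 3 counts cover counting error only. The steps were tested on simulated data in which 200 genes, drawn at random from those tested, were changed by known folds. Called were 4.69% of the genes changed 1.5-fold, 32.3% of those changed 2-fold and 67.2% of those changed 4-fold. Of the calls, 6.94% were unchanged genes. In the deposited data 23% of the genes tested were called, many more than were changed in the simulation, so these percentages need not carry over. A gene that was not called may still differ between the groups. No 2 libraries of a group agreed within sampling noise.

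The genes, lists and tests were chosen with earlier results of these data known. Named are the 8 genes, partners and regulators, detected family members, up to 4 called genes of each other list by smallest adjusted p, the nearest patterns and called neighbours, apart from some results not reported here. Other genes named (the marker genes, ADD1 and ADD2 as a ratio, and the genes around XK) were chosen after their values were seen. The alternatives were DESeq2 1.42.0 and its size factors, limma-voom (limma 3.58.1), upper quartile factors, library totals, no filter, at least 50 counts in 3 libraries, a replicate block, single libraries left out, both libraries numbered 3 left out, removal of mitochondrial, ribosomal RNA and the 10 most abundant features, an adjusted p below 0.01, and, after the data were seen, length and GC offsets.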

Additional observations from a re-analysis of the deposited data

How the results depend on the processing

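Of the 8 genes, 3 were higher and 2 lower with 6 libraries. With single libraries left out 1 to 3 were higher and 1 to 2 lower, and at an adjusted p below 0.01 there were 1 and 1. With library totals alone and with length and GC offsets 1 was lower. ANK1 and XK were called under every alternative run. GYPB was called higher only without a filter (adjusted p = 0.0311). In the 5 lists, 9 were higher and 21 lower, 14 were higher without a filter, and 5 and 12 passed an adjusted p below 0.01; leave-outs gave 4 to 10 and 11 to 25. Over all genes, 2054 were higher and 2741 lower, 4645 and 5021 without both libraries numbered 3, and 938 and 1586 at an adjusted p below 0.01; leave-outs gave 1051 to 3327 and 1677 to 3718. Library totals alone moved the median of all genes from 0.03 to 0.20, and upper quartile factors to 0.11; with library totals alone 3041 were higher and 2118 lower. The cause of these moves was not tested.

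The fit with the replicate number as a block gave 3 higher and 2 lower of the 8 genes, 11 and 25 in the lists, and 2859 and 3582 over all genes. The deviations of same-numbered libraries correlated at 0.202, 0.0850 and 0.299. Those of libraries with different numbers ran from −0.312 to 0.230, the highest being sensitive replicate 2 with resistant replicate 1. As not every same-numbered pair passed 0.1, the numbers were not taken to pair the libraries. Whether they mark a shared source was not tested. With the block GATA1 (adjusted p = 0.0238) and EPB41L5 (0.0116) were called lower. In the same fit EPB41 (0.00231) and SPTB (0.00439) stayed higher and GYPC (0.00517) lower.

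Without division by length the share of ANK1 rose by 16.5 and that of XK moved by −26.5 percentage points, against 7.87 and −41.5. The share of RHAG moved by −0.495 points, and by 0.0602 without resistant replicate 3 (leave-outs −1.003 to 0.0602). Leave-out ranges of the other shares, in points, were 7.10 to 8.50 (ANK1), 4.87 to 7.54 (SPTB), 18.5 to 25.2 (EPB41), −1.75 to −0.131 (EPB42), −49.4 to −35.4 (XK), 7.07 to 10.3 (GYPB) and −20.2 to −12.3 (GYPC).

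Some log2 fold changes without a call turned sign, and their ranges over single leave-outs were −0.58 to 0.67 for SLC4A1, −0.24 to 0.18 for SPTBN1, −0.17 to 0.64 for SPTBN5, −0.43 to 0.091 for TGM1, −0.38 to 0.33 for GYPE and −0.18 to 0.38 for RHCE. Without both libraries numbered 3, SLC4A1 was called lower (−1.02, adjusted p = 0.0135), and SPTBN1 stood at 0.27, GYPE at −0.18, XKR8 at −0.028 and RHCE at −0.11. SPTBN1 stood at 0.036 with upper quartile factors and 0.13 with library totals, and SPTBN5 at −0.14 with the offsets. Depth limits EPB42, at 1 to 45 counts per library.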
